A study of Mus musculus with 10 samples.

Results

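The genes described here are 10 components of the machinery that takes a cell through G1: the D-type cyclins Ccnd1, Ccnd2 and Ccnd3, their catalytic partners Cdk4 and Cdk6, the MYC family members Myc, Mycn and Mycl, the shared dimer partner Max and the MAX-binding repressor Mxd4. They were taken by symbol from a table of 24620 gene entries, where all 10 were found, and 8 of them were among the 7753 genes with enough counts to be tested. MuSCs (muscle satellite cells, the stem cells of skeletal muscle) were analysed in 5 libraries of each genotype, control and Trpm7 cKO, with 3000 sorted cells per library taken 3 days after cardiotoxin (CTX) injury. Control mice were Trpm7+/+; Pax7 CreERT2/+; Rosa26 YFP and cKO mice were Trpm7 flox/flox; Pax7 CreERT2/+; Rosa26 YFP, all adult and on a C57BL6 background. Both genotypes therefore carried the inducible Cre and the YFP reporter and received tamoxifen, and Cre acts only in cells that express Pax7 and in their descendants. Cells were sorted as YFP-positive. The labels do not say that each library came from a separate mouse, and the library names of Trpm7 cKO replicates 4 and 5 share a number whose meaning is not given, so the p-values measure the spread between these libraries only.

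D-type cyclins are made in response to growth signals and activate CDK4 and CDK6, which phosphorylate the retinoblastoma protein and release E2F factors to start S phase. MYC proteins bind DNA as dimers with MAX at E-box sequences and raise the expression of genes for cell growth, whereas MXD proteins, which also need MAX, repress such genes. In muscle, quiescent satellite cells leave G0 after injury and enter this programme before they divide, and MYCL is a MYC family member with a more restricted pattern of expression than MYC.

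Control libraries held 914361 to 1097709 counts and Trpm7 cKO libraries 205986 to 581121. Values below are normalized CPM, counts scaled by TMM to the same total (CPM) over the tested genes, and each count is 1 molecule read at its 3′ end, so that levels of different genes can be compared without a correction for length. The targeted gene, Trpm7, had 76.9 ± 9.97 normalized CPM (SD, n = 5) in control against 71.4 ± 22.01 (SD, n = 5) in Trpm7 cKO MuSCs, and it was not called (log2 fold change -0.09, standard error 0.20, adjusted p = 0.723, edgeR). Which part of the gene was deleted is not given in the sources used here, and counts of 3′ ends do not check a deletion that lies elsewhere in the gene. Pax7 and Myod1, markers of satellite cells and myoblasts, were present in every library, at 206 ± 33.7 and 744 ± 111 normalized CPM (SD, n = 5) in control and 474 ± 122 and 181 ± 36.6 (SD, n = 5) in Trpm7 cKO libraries. The 12 listed markers of these cells summed to 2926 to 3380 in control and 2519 to 3989 in Trpm7 cKO libraries, which overlap. Of 10 tested, 2 were called lower and 4 higher, beside 24.1% and 24.6% of all tested genes. Markers of other cells were also present and moved with genotype. Of 18 leukocyte markers, 14 were tested and all 14 were higher in Trpm7 cKO (edgeR's quasi-likelihood test, adjusted p below 0.05). Some, such as Adgre1, at 4.85 normalized CPM in control, passed the filter only through Trpm7 cKO libraries. The summed level of the 18 was 246 to 435 normalized CPM in control, whereas Trpm7 cKO MuSCs had 1109.7 to 4729, and none of the 18 was at 0 in all control libraries. Endothelial markers summed to 4.29 to 63.7 against 103 to 657, fibroadipogenic progenitor markers to 1025 to 2061 against 1725 to 3969, and pericyte and smooth muscle markers to 598 to 943 against 1187 to 1745, with no list wholly at 0 in control. A few genes carried the last 2 sums in control: Col3a1 at 1179, which was not called though 5 of 6 tested progenitor markers were higher, and Acta2 at 481 with Notch3 at 232. These sums thus do not measure numbers of such cells. The part of these other cells in the results below was not tested beyond the values given there. In sorted bulk samples, fewer cells of a type and less RNA per cell cannot be told apart.

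Across the 10 genes, Cdk4 and Mycl were much lower in Trpm7 cKO MuSCs, Cdk6 was lower by a smaller amount, Mxd4 was higher, and Ccnd1, Ccnd2, Myc and Max passed no test in either direction. With p-values adjusted over all tested genes (edgeR quasi-likelihood, Benjamini-Hochberg), 3 of the 8 tested members were called lower and 1 higher at an adjusted p below 0.05, where 24.1% of all tested genes were called lower and 24.6% higher (48.7% in either direction). Past a log2 fold change of 1.5 as well, 2 of the 8 were lower, against 3.53% of all tested genes, and 0 were higher, against 8.49%. Mycl passed the filter on counts through the control libraries alone, and Mxd4 through the Trpm7 cKO libraries, since 5 libraries had to reach the filter and Mycl reached it in 0 cKO and Mxd4 in 1 control library. The same counts refitted with no filter gave adjusted p = 4.14e-16 for Mycl and 0.0286 for Mxd4 (edgeR), which is no separate support for either call. The count of called members is a description and not a finding about the group. The median log2 fold change of the 8 was 0.03, beside -0.01 for all tested genes.

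**Figure D1:**
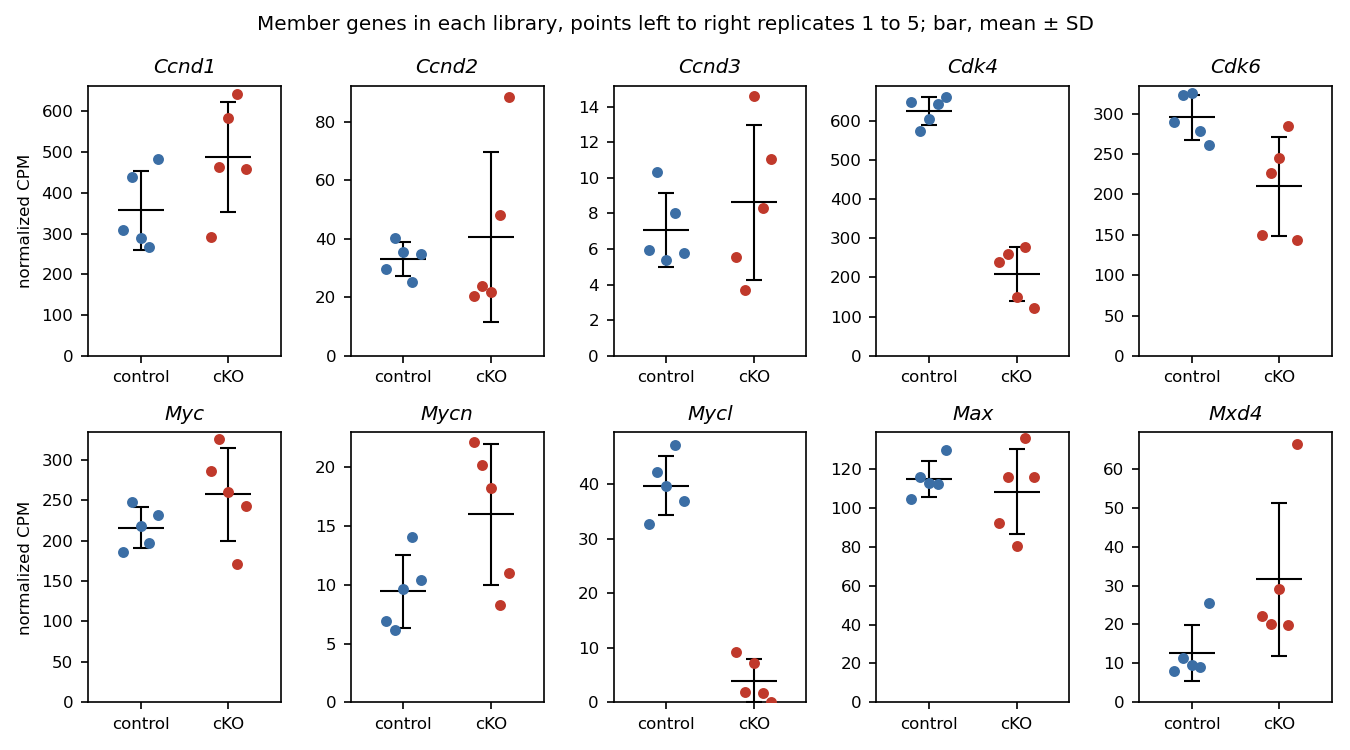
Normalized CPM (y axis, linear, from 0) of the 10 member genes in each of 5 control (blue) and 5 Trpm7 cKO (red) libraries, replicates 1 to 5 from left to right, with mean ± SD in black. Cdk4 and Mycl show groups that do not overlap, Cdk4 at 572 to 659.9 against 121 to 277, while the other 8 genes overlap between the genotypes.

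Ccnd1 encodes cyclin D1, and it was by far the most abundant of the D-type cyclins. Its normalized CPM in control replicates 1 to 5 was 309, 439, 288, 266 and 483, and in Trpm7 cKO replicates 1 to 5 it was 292, 464, 585, 643 and 458. The groups overlapped over most of their range, with Trpm7 cKO replicate 1 among the lower control values and replicates 3 and 4 above every control library. The log2 fold change was 0.45 with a standard error of 0.21 (adjusted p = 0.0781, edgeR), with a 95% interval from 0.02 to 0.88 that is not adjusted for the number of genes. The mRNA of Ccnd1 was thus not called lower in the sorted Trpm7 cKO MuSCs. A decrease of its share of the library falls outside that interval, which holds for this fit alone. With the leukocyte marker score as a covariate, which itself separates the genotypes, the log2 fold change was -0.32 (standard error 0.52, adjusted p = 0.793, edgeR). A decrease within MuSCs alone was not tested. The call depended on single libraries, with an adjusted p of 0.0281 without control replicate 5 and 0.0124 without Trpm7 cKO replicate 1 (the same edgeR test). Taken per 3000 sorted cells with no scaling between libraries, the log2 fold change of Ccnd1 turned to -0.70 (adjusted p = 0.0831, edgeR), a setting in which the median of all genes was -1.15, so that relative to other genes it stood at 0.46.

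Cyclins D2 and D3, from Ccnd2 and Ccnd3, can replace cyclin D1 in many cells, and both were scarce here. Ccnd2 had 29.8, 40.3, 35.4, 25.1 and 34.7 normalized CPM in control replicates 1 to 5, and 20.3, 23.9, 21.9, 48.1 and 88.3 in Trpm7 cKO replicates 1 to 5. Thus 3 Trpm7 cKO libraries lay below every control library and 2 lay above, and the log2 fold change, 0.12 with a standard error of 0.31 (adjusted p = 0.765, edgeR), has a 95% interval from -0.52 to 0.77. Without Trpm7 cKO replicate 5, the smallest library, where 88.3 normalized CPM rest on 16 counts, it was -0.15, and without replicate 4 it was -0.08. With the leukocyte marker score as a covariate it was -2.14 (standard error 0.79, adjusted p = 0.126, edgeR). Ccnd3 did not pass the filter, with 5 to 10 counts in control and no more than 5 in any Trpm7 cKO library. With no filter, its log2 fold change was -0.09 with a standard error of 0.51 (adjusted p = 0.901, edgeR), a standard error that leaves differences of either sign undetectable at this depth. The last exon of Ccnd3 overlaps Bysl on the opposite strand, a gene with 32 to 43 counts in control, whereas Trpm7 cKO MuSCs had 3 to 16, and the strand setting of the counting is not given in the sources used here, so the few Ccnd3 counts cannot be assigned with certainty.

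The make-up of the D-type cyclin pool can be read within each library, where scaling between libraries has no part. Ccnd1 made up 87.6% to 92.3% of D-type cyclin counts in control libraries, whereas Trpm7 cKO MuSCs had 82.2% to 94.4%. Ccnd2 took 8.53% ± 1.47 (SD, n = 5) and 7.501% ± 4.84 (SD, n = 5), and Ccnd3 took 1.85% ± 0.588 and 1.602% ± 0.638 (SD, n = 5). Trpm7 cKO replicate 5 stood apart with the lowest share of Ccnd1, at 82.2% (Wilson 95% interval from 73.6% to 88.4%), while in the other Trpm7 cKO libraries the share was at least 91.9%. These intervals cover counting error only.

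Cdk4, the catalytic partner of the D-type cyclins, was the most abundant of the 10 genes in control MuSCs. It lies on chromosome 10 of GRCm38, from 127063534 to 127067920 on the plus strand, and has 8 exons in its longest coding transcript. The sequence around its start holds several copies of the letters CACGTG, the E-box that MYC-MAX and MXD-MAX dimers bind. In the RefSeq window (GRCm38.p6) from 250 bases before the start to 50 after it, CACGTG occurred 4 times, and 8 of 32851 windows of that length (0.0244%) held 4 or more. CACGTG reads the same on both strands and at least 1 copy was in 7.15% of windows. The Cdk4 sites are printed 5′ to 3′ on the strand of the gene with the motif in capitals, because Cdk4 is the member with the firmest change among those with an E-box, followed by the single sites of Cdk6, Max and Mxd4 for comparison.
Cdk4, chr10:127063351-127063380, motif 172 bases before the start: atggcagccagtCACGTGccacacagcgta
Cdk4, chr10:127063405-127063434, motif 118 bases before the start: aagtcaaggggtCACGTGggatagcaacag
Cdk4, chr10:127063425-127063454, motif 98 bases before the start: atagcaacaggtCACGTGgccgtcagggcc
Cdk4, chr10:127063512-127063541, motif 11 bases before the start: aagggtgaagatCACGTGtccagaacgtcc
Cdk6, chr5:3343661-3343690, plus strand, motif 220 bases before the start: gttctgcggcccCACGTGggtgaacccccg
Max, chr12:76962234-76962263, minus strand, motif 3 bases before the start: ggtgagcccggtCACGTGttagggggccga
Mxd4, chr5:34187912-34187941, minus strand, motif 219 bases before the start: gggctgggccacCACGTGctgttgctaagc
Windows were given for 7 of the 10 members (8 windows). Mycl, Mycn and Ccnd3 had a window without CACGTG, and Ccnd1, Ccnd2 and Myc had no window. A match of letters is a description of the sequence and not a site of binding, and the members with a match included 1 that was called lower strongly (Cdk4), 1 lower weakly (Cdk6), 1 higher (Mxd4) and 1 not called (Max).

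Cdk4 had 646, 572, 603, 642 and 659.9 normalized CPM in control replicates 1 to 5, and 238, 259, 149.8, 277 and 121 in Trpm7 cKO replicates 1 to 5. Every Trpm7 cKO library was below every control library, as was the case for 17.9% of all tested genes, and the gap between the groups was wider than the range of either. Its log2 fold change was -1.53 with a standard error of 0.18 (adjusted p = 1.07e-06, edgeR), 95% interval from -1.90 to -1.16. In the ordering of tested genes by mean level, 2.66% lay above Cdk4 in control and 9.93% in Trpm7 cKO libraries. Leaving out any 1 of the 10 libraries moved its log2 fold change between -1.63 and -1.41, with an adjusted p of at most 8.47e-06 (edgeR). With the leukocyte marker score as a covariate it was -1.14 (adjusted p = 0.201, edgeR), in a fit where the score itself separates the genotypes and the number of all genes called lower went from 1866 to 92. Cdk4 was at 259 in Trpm7 cKO replicate 2, which had the lowest leukocyte marker sum of its genotype, 1109.7 normalized CPM. That sum was still above the control maximum of 435. In replicate 4, with a sum of 4686, Cdk4 was at 277, the highest of its genotype. In replicate 5, with the largest sum, 4729, it was at 121, the lowest. Replicates 1 and 3 had sums of 2751 and 2788, with Cdk4 at 238 and 149.8. What part other cells had in the Cdk4 difference was not tested. Tspan31, which overlaps the end of Cdk4 in antisense orientation, had at most 5 counts in any library. Of the last 500 transcript bases of Cdk4, 15.4% also occur in transcripts of 456 other genes in matches of 31 bases. How far this makes its counts uncertain was not measured.

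Cdk6 encodes the second kinase that D-type cyclins activate. It had 289, 323, 325, 278 and 262 normalized CPM in control replicates 1 to 5, and 149.7, 226, 245, 285 and 143 in Trpm7 cKO replicates 1 to 5. The groups overlapped through Trpm7 cKO replicate 4, which lay within the control range, and the other 4 lay below it. The log2 fold change was -0.47 with a standard error of 0.17 (adjusted p = 0.0285, edgeR), 95% interval from -0.83 to -0.11. This call did not hold up in every setting: the adjusted p (edgeR) was 0.0615 without control replicate 2, 0.0686 without control replicate 3, 0.0877 without Trpm7 cKO replicate 1, 0.0603 without Trpm7 cKO replicate 5, 0.0702 with library totals alone and 0.0574 when scaled on muscle stem cell markers. It was 0.0761 with counts thinned to the smallest library and 0.635 with the leukocyte marker score as a covariate (edgeR), and the direction was kept in each of these settings.

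Within a library, Cdk4 took 69.1%, 63.9%, 65.0%, 69.8% and 71.6% of the summed Cdk4 and Cdk6 counts in control replicates 1 to 5. In Trpm7 cKO replicates 1 to 5 it took 61.4%, 53.4%, 38.0%, 49.3% and 45.8%. The groups did not overlap, although the Wilson 95% interval of Trpm7 cKO replicate 1, from 54.7% to 67.8%, reached into the control range, and that of replicate 5, from 32.6% to 59.7%, was wide because it rests on 48 counts. Set against its kinase, Ccnd1 had 41.4 to 76.7 counts per 100 Cdk4 counts in control libraries, whereas Trpm7 cKO MuSCs had 122 to 390.2. The 3 D-type cyclins together had 32.5 to 56.8 counts per 100 Cdk4 plus Cdk6 counts in control, whereas Trpm7 cKO MuSCs had 81.9 to 210.4. In control MuSCs the kinase counts thus exceeded those of the D-type cyclins in every library. In 4 of 5 Trpm7 cKO libraries the cyclin counts exceeded those of the kinases, in replicate 2 barely, at 101 per 100. These ratios were compared without a test.

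**Figure D2:**
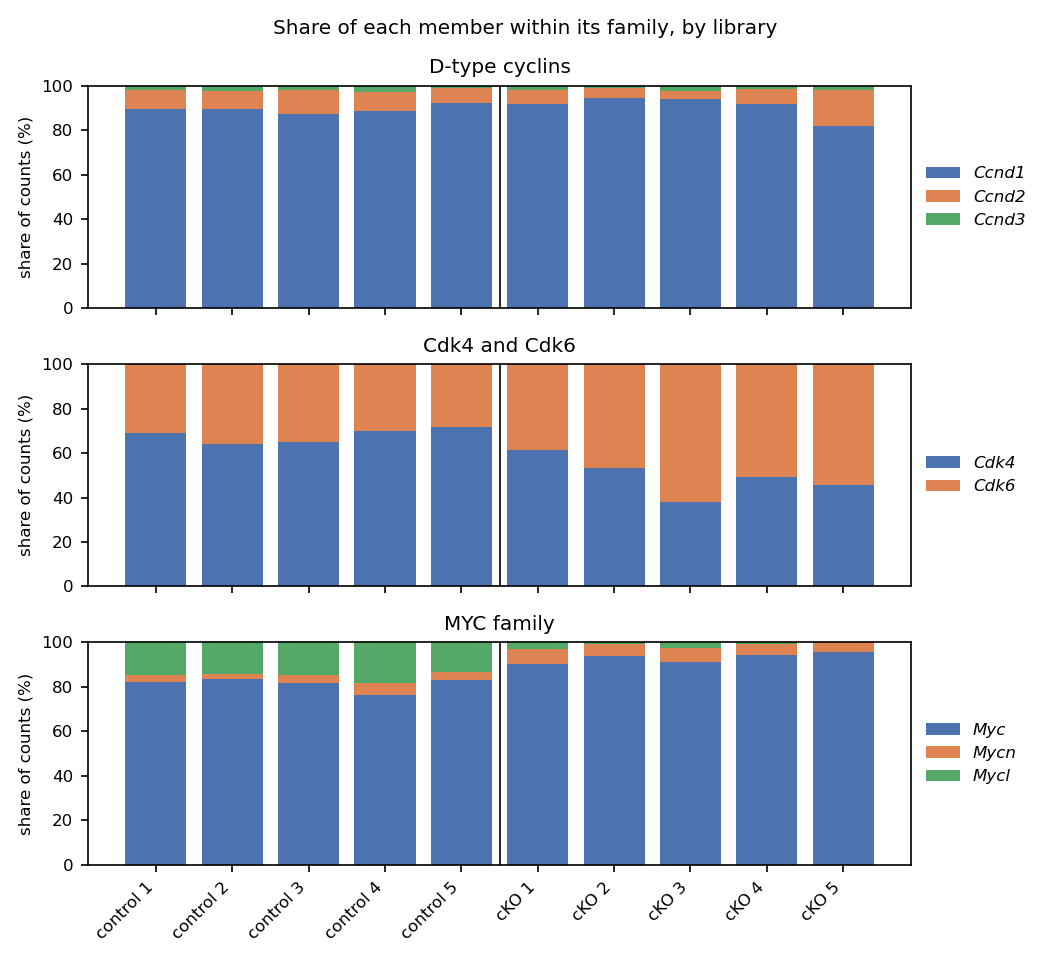
Share of counts (y axis, %) that each member took within its family in each library (x axis, 5 control then 5 Trpm7 cKO, divided by a line), for the D-type cyclins, for Cdk4 with Cdk6 and for the MYC family. The Cdk4 share is 63.9% to 71.6% in control, whereas Trpm7 cKO MuSCs had 38.0% to 61.4%, and that of Mycl is at least 13.3% in control, with a maximum of 2.91% in Trpm7 cKO MuSCs, while Ccnd1 makes up most of the D-type cyclin counts in every library.

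Myc, the broadly expressed member of its family, had 186, 248, 218, 197 and 232 normalized CPM in control replicates 1 to 5, and 286, 326, 259, 171 and 243 in Trpm7 cKO replicates 1 to 5. Of the Trpm7 cKO libraries, 3 lay above every control library and replicate 4 lay below all of them. Its log2 fold change was 0.25 with a standard error of 0.16 (adjusted p = 0.209, edgeR), 95% interval from -0.09 to 0.59. Without Trpm7 cKO replicate 4 the adjusted p was 0.0296 and the log2 fold change 0.39 (edgeR). Taken per 3000 sorted cells, the log2 fold change of Myc turned to -0.90 (adjusted p = 0.0269, edgeR), which is 0.25 above the median of all genes in that setting. Mycn, a paralogue best known from embryonic tissues, missed the filter, with 6 to 14 counts in control and no more than 12 in any Trpm7 cKO library. With no filter, its log2 fold change was 0.59 with a standard error of 0.39 (adjusted p = 0.267, edgeR), and no difference was detectable at this depth.

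Mycl was the member with the lowest log2 fold change. Control replicates 1 to 5 held 33, 41, 37, 47 and 32 Mycl counts, whereas Trpm7 cKO replicates 1 to 5 held 5, 1, 2, 1 and 0. Normalized, this was 39.8 ± 5.42 CPM (SD, n = 5) in control against 4.01 ± 4.02 (SD, n = 5) in Trpm7 cKO MuSCs, and the groups did not overlap. The 0 counts of Trpm7 cKO replicate 5 allow a level of up to 16.6 normalized CPM at its depth, still below the lowest control value of 32.8. The log2 fold change was -3.19 with a standard error of 0.38 (adjusted p = 1.59e-06, edgeR), 95% interval from -3.99 to -2.39, and it lay between -3.90 and -2.90 when any 1 library was left out. With the leukocyte marker score as a covariate it was -2.71 (adjusted p = 0.191, edgeR). Mycl had 1 count in Trpm7 cKO replicate 2, with the lowest leukocyte marker sum of its genotype. It also had 1 count in replicate 4, where that sum was 4686 normalized CPM, and 0 in replicate 5, where it was largest, 4729. Replicates 1 and 3, with sums of 2751 and 2788, held 5 and 2 Mycl counts. What part other cells had in the Mycl difference was not tested. Its gene, on chromosome 4 of GRCm38 from 122995652 to 123002485, has 2 exons in its longest coding transcript. No other gene overlaps the last 500 bases of its last exon. None of its last 500 transcript bases is shared with another gene in matches of 31 bases.

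The make-up of the MYC family also differed within libraries. In control libraries Mycl took 13.3% to 18.3% of the MYC family counts and Myc 76.3% to 83.6%. In Trpm7 cKO libraries Mycl took at most 2.91% (replicate 1, Wilson 95% interval from 1.25% to 6.62%) and Myc at least 90.1%. The Mycn share overlapped between the groups, at 2.09% to 5.45% and 4.35% to 6.98%.

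Max, the dimer partner that both MYC and MXD proteins need, was not called. It had 104, 116, 113, 112 and 129.7 normalized CPM in control replicates 1 to 5, and 92.4, 116, 80.4, 136 and 116 in Trpm7 cKO replicates 1 to 5, so that the groups overlapped on both sides. Its log2 fold change was -0.07 with a standard error of 0.16 (adjusted p = 0.731, edgeR). For its share of the library, the 95% interval from -0.40 to 0.26 (0.76 to 1.19 times) excludes a change of 1.5 times in either direction. Per 3000 sorted cells with no scaling between libraries, the log2 fold change of Max was -1.20 (adjusted p = 0.00372, edgeR). The median of all genes was -1.15 in that setting. Per 100 counts of the MYC family, Max had 43.5 ± 3.09 counts (SD, n = 5) in control against 42.3 ± 19.7 (SD, n = 5) in Trpm7 cKO MuSCs. The closeness of these means rested on Trpm7 cKO replicate 4, at 75.2, since replicates 1, 2 and 3, at 29.1, 33.3 and 28.2, lay below every control library and replicate 5 was at 45.7. Without replicate 4 the difference, Trpm7 cKO minus control, moved from -1.20 to -9.44 counts per 100.

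Mxd4 encodes a repressor that competes with MYC for MAX and is associated with cells that leave the cycle. Its counts were 8, 11, 9, 9 and 22 in control replicates 1 to 5 and 12, 11, 8, 12 and 12 in Trpm7 cKO replicates 1 to 5. Since the Trpm7 cKO libraries were smaller, this was 12.7 ± 7.25 normalized CPM (SD, n = 5) in control against 31.6 ± 19.7 (SD, n = 5) in Trpm7 cKO MuSCs. Control replicate 5, at 25.5, lay above 3 of the 5 Trpm7 cKO libraries, and Trpm7 cKO replicate 5, at 66.2, stood apart at the top. The log2 fold change was 1.09 with a standard error of 0.38 (adjusted p = 0.0224, edgeR). The call was lost without control replicate 1 (adjusted p = 0.055), without control replicate 4 (0.0516) and without Trpm7 cKO replicate 5 (0.0667), and the direction turned to -0.10 per 3000 sorted cells and to -0.57 with the leukocyte marker score as a covariate (the same edgeR test). Per 100 Myc counts there were 4.28, 4.58, 4.43, 4.59 and 11 Mxd4 counts in control replicates 1 to 5, and 7.74, 6.21, 11.3, 11.7 and 27.3 in Trpm7 cKO replicates 1 to 5.

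**Figure D3:**
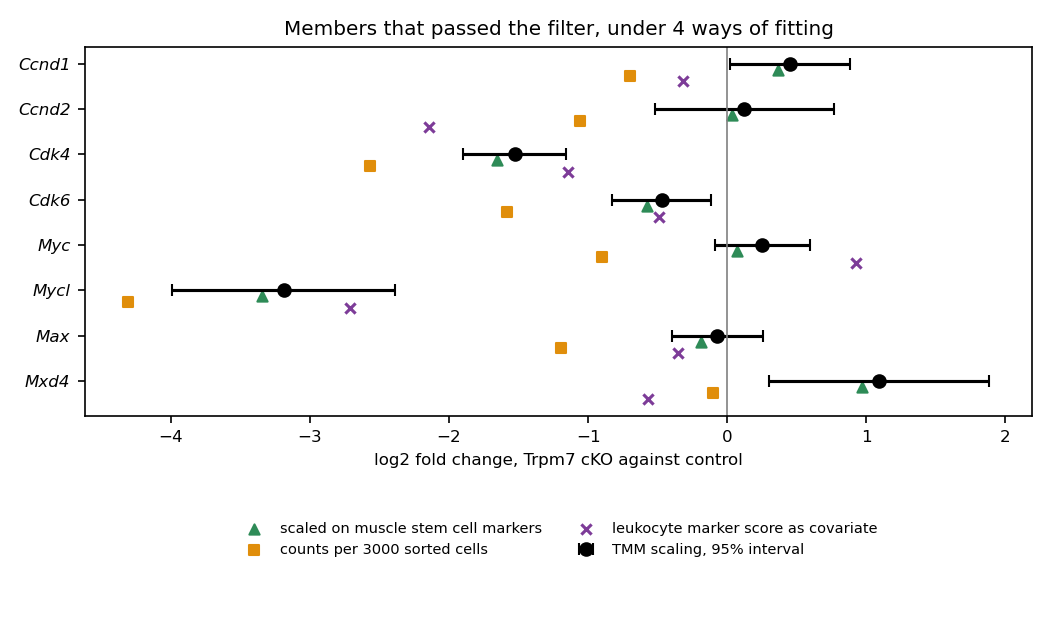
Log2 fold change of Trpm7 cKO against control (x axis) for the 8 members that passed the filter (y axis), with the 95% interval of the edgeR fit with TMM scaling in black and the values under 3 other fits as coloured marks. Cdk4, Mycl, Cdk6 and Max, the last of which was not called, lie below 0 in all 4 fits, Cdk4 between -2.57 and -1.14. In contrast, Ccnd1, Ccnd2, Myc and Mxd4 take either sign.

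By mean level in control MuSCs, the order was Cdk4, Ccnd1, Cdk6, Myc, Max, Mycl, Ccnd2, Mxd4, Mycn and Ccnd3. Ccnd1 and Cdk6 overlapped, as did Mycl with Ccnd2, Ccnd2 with Mxd4, and Mxd4, Mycn and Ccnd3 with one another, while no values overlapped between Cdk4 and Ccnd1, Cdk6 and Myc, Myc and Max, or Max and Mycl. In Trpm7 cKO MuSCs the order began with Ccnd1, at 488 ± 135 normalized CPM (SD, n = 5), followed by Myc at 257 ± 57.6, Cdk6 at 209.9 ± 61.6 and Cdk4 at 209 ± 69.2. The last 3 overlapped, and so did Ccnd1 (from 292) and Myc (up to 326). Mycl moved to the end by its mean, below Ccnd3 at 8.63 ± 4.35, although the values of these genes overlapped.

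The tested genes outside the list whose log2 profile over the 10 libraries came closest to Cdk4, by the root-mean-square difference of mean-centred log2 CPM, were Mrrf (0.15) and Tomm70a (0.16). For Mycl they were Cavin4 (0.27) and Myzap (0.32), and for Ccnd1 Aup1 and Vps13d (both 0.19). For Cdk6 they were Pou2f1 (0.12) and Usp10 (0.15), for Max Virma (0.11) and Ranbp2 (0.13), for Ccnd2 Mre11a (0.17) and Cul7 (0.24), and for Mxd4 Gramd1b and Ap2a2 (both 0.26). The profiles share libraries and depth, and the differences are given with no test.

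The counts of called genes in the lists that follow stand beside 24.1% called lower and 24.6% called higher among all tested genes. These lists were chosen with earlier results of these data known, so their counts are a description and not independent support. Of 8 other genes of the MAX and MLX network, 4 were tested. Mga, a large MAX partner with repressive functions, was called higher, at 72.1 ± 17.7 normalized CPM (SD, n = 5) in control against 165 ± 28.7 (SD, n = 5) in Trpm7 cKO MuSCs (log2 fold change 1.19, standard error 0.18, adjusted p = 2.05e-05, edgeR). The repressors Mxd1 and Mxi1 and the MLX partner Mlxip were not called, at log2 fold changes of -0.33, 0.04 and -0.05.

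Among genes that set the turnover of MYC and D-type cyclins, 3 of 7 tested were called higher and 1 lower. Fbxw7, which encodes the F-box protein that directs MYC and cyclin E to degradation, was at 13.4 ± 1.099 normalized CPM (SD, n = 5) in control against 38.1 ± 10.4 (SD, n = 5) in Trpm7 cKO MuSCs (log2 fold change 1.40, adjusted p = 0.000131, edgeR). Fbxo4, for an F-box protein linked to cyclin D1, and Gsk3b, for a kinase that marks both MYC and cyclin D1 for degradation, were higher by log2 fold changes of 0.98 and 0.38 (adjusted p = 0.0268 and 0.0424, edgeR). Of 9 tested MYC cofactors, 4 were lower and 2 higher, among them Wdr5 at -1.14 and Zbtb17, which encodes the MYC partner MIZ1, at 0.94 (adjusted p = 8.38e-05 and 0.00846, edgeR).

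Among G1/S kinases and their partners, 4 of 9 tested genes were called lower and 1 higher, beside 24.1% and 24.6% of all tested genes. Ccne1, for cyclin E1, was the lowest, at -2.20 on the log2 scale, with a standard error of 0.34 (adjusted p = 3.14e-05, edgeR). Cdk2, the partner of cyclin E, was at -0.67, Cdc37, for the chaperone that loads CDK4 onto HSP90, at -0.63, and Cdk7, for the CDK-activating kinase, at -0.70 (adjusted p between 0.00191 and 0.00396, edgeR), while Mnat1, for the assembly factor of that kinase, was at 0.74 (adjusted p = 0.000672, edgeR). Of 5 tested CDK inhibitors, Cdkn1a and Cdkn2c were called lower, Cdkn1a from 2054 ± 156 to 1313 ± 201 normalized CPM (SD, n = 5, adjusted p = 0.000786, edgeR), and none was called higher. Of 12 tested RB and E2F genes, 6 were lower and 1 higher, with E2f2 at -2.49, E2f8 at -2.29 and E2f4 at -1.76 and with Tfdp2, for a DP partner of E2F, at 0.71 (adjusted p at most 0.00256, edgeR). Rb1, which encodes the protein that CDK4 and CDK6 phosphorylate, was not called, at -0.22 (adjusted p = 0.425, edgeR), and is named here after its value was seen.

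Most called genes of the target lists were lower in Trpm7 cKO. Of 28 tested genes listed as MYC targets, 19 were called lower, 1 higher and 8 neither, with a median log2 fold change of -0.67. Among all tested genes, 24.1% were lower and 24.6% higher. Both target lists were chosen with earlier results of these data known, so an excess over these shares is not independent support. Bop1, a ribosome biogenesis factor, was at -1.93, Shmt2, an enzyme of mitochondrial one-carbon metabolism, at -1.87, and Npm1, a nucleolar chaperone, at -1.39, and the 1 gene called higher was Tfap4, a transcription factor, at 0.62 (adjusted p at most 0.0368, edgeR). Of 14 tested E2F targets, 10 were called lower and 0 higher, and the other 4 were not called, with a median of -0.91. Rrm2, a subunit of ribonucleotide reductase, was at -2.30, Ccna2, for cyclin A2, at -1.68 and Cdc6, a replication licensing factor, at -1.22 (adjusted p at most 0.00773, edgeR). Cdc6, which averaged 10.3 normalized CPM in Trpm7 cKO, passed the filter mainly through control. The leukocyte and other marker sums given above moved with the same libraries, and their part in these counts was not tested. CACGTG was found in the 300-base window around the start of 8 of the 24 MYC target genes with a window (28 windows). It was in 7.15% of all windows, a share of windows and not of genes, and both are given as a description.

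**Figure D4:**
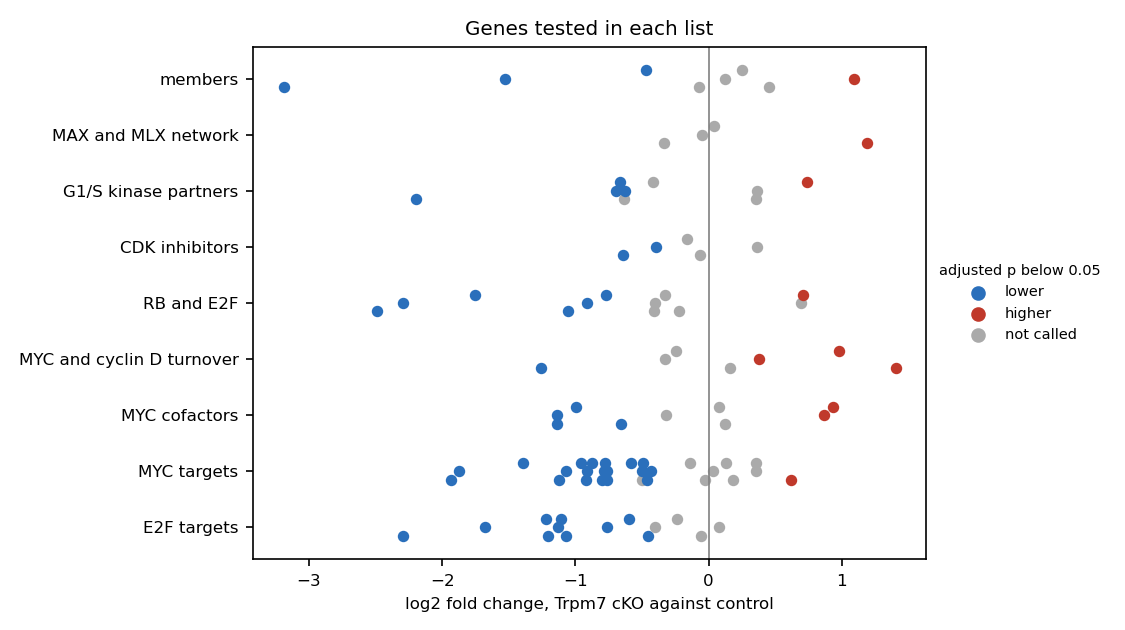
Log2 fold change of Trpm7 cKO against control (x axis) for every tested gene of the members and of 8 lists of related genes (y axis), coloured by the edgeR call at an adjusted p below 0.05. MYC targets and E2F targets lie mostly below 0, with 19 of 28 and 10 of 14 called lower, while the MAX network and the turnover genes lie on both sides.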

How the data were processed

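MuSCs were sorted as YFP-positive cells and profiled by CEL-Seq2, a 3′-end method with molecular identifiers. The authors deposited raw counts of molecules per gene for 5 control and 5 Trpm7 cKO libraries. Per the methods and the submitters' processing notes, reads were handled with UMI-tools 1.1.4 and Trim Galore 0.6.10, aligned to GRCm38 with HISAT2 2.2.1 and counted with featureCounts 2.0.6. The annotation release and strand setting are not given in the sources used here. Groups came from the sample labels. Counts were filtered with edgeR's filterByExpr (7753 genes kept), scaled by TMM and tested with edgeR 4.0.16 (quasi-likelihood F-test) in R 4.3.3, with Benjamini-Hochberg adjustment over all tested genes and a threshold of 0.05. DESeq2 1.42.0 was an alternative. The procedure was tested on simulated data. Shares are given with Wilson 95% intervals. Intervals and the floor of 3 counts cover counting error only. The members and gene lists were chosen with earlier results of these data known. All members were named, with every gene of lists of at most 10 tested genes eligible, the 3 lowest and 3 highest called genes of longer lists eligible, and 2 nearest profiles per tested member. The nearest profiles of Myc and 1 gene of the turnover list are not reported here. Loci came from GENCODE vM21 and promoter windows from RefSeq, with those of mouse chromosome 18 left out.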

Additional observations from a re-analysis of the deposited data

Results flagged for a closer look

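Within groups of 5 libraries, 7 of 44 sets of values had 1 library far from the others (Dixon's ratio above 0.710), a ratio that chance passes in about 5% of groups. Trpm7 cKO replicate 5, the smallest library, stood apart in 4 of them. Its Ccnd1 share of D-type cyclin counts was 82.2% (next library 91.9%), its Ccnd2 share was 15.8% (next 6.87%), its Mxd4 level was 66.2 normalized CPM (next 29.2) and it had 27.3 Mxd4 counts per 100 Myc counts (next 11.7). Control replicate 5 stood apart for Mxd4, at 25.5 normalized CPM (next 11.4) and 11 counts per 100 Myc counts (next 4.59). In control replicate 4 the Myc share of MYC family counts was 76.3% (next 81.5%).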

How the results depend on the processing

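Cdk4, Mycl and Cdk6 kept their direction under every alternative run. Cdk4 and Mycl also kept their call under all but the leukocyte marker score as a covariate. Genes called lower, 1866 as reported, numbered 446 with counts thinned to the smallest library, 92 with the leukocyte covariate and 5162 per 3000 sorted cells (chosen after seeing the data), and genes called higher, 1908 as reported, numbered 747, 311 and 380 in these settings and 2881 with no filter. Members called lower were 0 with the leukocyte covariate and 6 per 3000 sorted cells, and members called higher were 0 with thinning, with the covariate and per 3000 sorted cells. Leaving out 1 library gave 1652 to 1893 genes lower, 1742 to 1918 higher, 2 to 3 members lower and 0 to 2 higher. Log2 fold changes reversed with the leukocyte covariate for Ccnd1 (-0.32), Ccnd2 (-2.14) and Mxd4 (-0.57), per 3000 sorted cells for Ccnd1 (-0.70), Ccnd2 (-1.06), Myc (-0.90) and Mxd4 (-0.10), with thinning for Max (0.23), with no filter for Ccnd2 (-0.075), and for Ccnd2 without Trpm7 cKO replicate 4 (-0.08) or 5 (-0.15), within a range of -0.15 to 0.31. Apart from the thinned counts, which hold fewer molecules, the cause was not tested. The replicate numbers did not pair the samples (correlations of same-numbered libraries from -0.12 to 0.18), and with a replicate block 1758 genes were lower and 1814 higher, with no member's call changed, but with 1 CDK inhibitor called lower in place of 2 and 0 MYC targets called higher in place of 1. Summing Trpm7 cKO replicates 4 and 5 gave 1898 lower and 1928 higher. The low counts of Ccnd3, Mycn, Mxd4 and of Mycl in Trpm7 cKO limit what can be said of them.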
